A study of Arabidopsis thaliana with 18 samples.

Results

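The broad H3K9ac domains of wild type are stretches of chromatin of at least 5000 bp that carry acetylation of histone H3 at lysine 9 (H3K9ac) as 1 unbroken enriched peak. They were chosen by width, as the peaks of wild-type H3K9ac replicate 1 that are 5000 bp wide or more and overlap a peak of wild-type replicate 2 by at least 1 bp. Of 11653 peaks in replicate 1, 637 were this wide, and 623 of these overlapped a peak of replicate 2, which is 5.35% of all peaks of that library. The width in replicate 1 and the presence of a peak in replicate 2 therefore chose the domains and are given only as description.

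H3K9ac and H3K14ac (acetylation at lysine 14) were profiled by ChIP-seq (sequencing of DNA pulled down with an antibody to the mark) in seedlings of Arabidopsis thaliana, ecotype Col, harvested 10 days old. They were kept at 23 °C in long days (16 h light) after cold treatment. The 3 genotypes were the wild type (WT), hda9-1, a mutant of the histone deacetylase HDA9, and pwr-2, a mutant of POWERDRESS (PWR), a SANT-domain protein. Titles of the hda9-1 libraries read "hdac", and their genotype label was followed. Each genotype had 2 libraries of H3K9ac and 1 of H3K14ac, which leaves H3K14ac without a replicate. Although described as biological replicates, the H3K9ac pairs are not said to come from separate plantings, and the p-values below measure only the spread between these libraries. Whole seedlings were used, so acetylation of more nuclei and acetylation of more cell types cannot be told apart. The 9 input samples were not analysed here, and peak lists hold no measure by which the loss of HDA9 or PWR could be checked.

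Acetylated H3 lysines are laid down by acetyltransferases at active genes and removed by histone deacetylases. In plants H3K9ac usually sits at the start of transcribed genes, and a peak is commonly narrower than a gene. HDA9 is a class I deacetylase of the RPD3 type, and PWR is known as its partner in Arabidopsis.

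The libraries differed in depth, taken here as reads within peaks, since the peak lists give no total of sequenced reads. Reads within peaks numbered 1948253 and 2223676 for H3K9ac of WT, 12265470 and 18171153 for hda9-1, 3757931 and 8873855 for pwr-2, and between 667780 and 1090139 in the 3 H3K14ac libraries. Peaks of 5000 bp or more were 637 and 533 for WT, 1247 and 1366 for hda9-1, 978 and 968 for pwr-2. Both mutants held more H3K9ac reads in peaks than WT, and hda9-1 more than pwr-2. Depth and genotype therefore cannot be told apart wherever covered lengths are compared below. Where a library has no peak, the files give no value, which is not the same as no reads.

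The domains had a median width of 6200 bp with quartiles of 5400 and 7800 bp. The widest was 21200 bp, and 68 domains reached 10000 bp. Together they spanned 4.36 Mb and held 18.9% of the bases and 17.9% of the reads in the peaks of WT replicate 1. At the threshold, 59 domains were exactly 5000 bp wide, and 68 peaks of 4800 bp that also overlapped a replicate 2 peak fell 1 step of 200 bp below it. The domains were long without being dense: their median was 79.5 reads per kb in WT replicate 1, against 90.7 reads per kb in the 10133 peaks under 5000 bp that overlapped a peak of replicate 2. In the other 5 H3K9ac libraries the median read density of the peaks over the domains was between 0.942 and 0.960 of the median of all peaks in the same library. They lay on all 5 chromosomes and made up between 4.89% of peaks on chromosome 3 and 5.89% on chromosome 1.

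Most domains held several genes. A domain overlapped 2.60 ± 1.19 protein-coding genes (mean and SD over 623 domains), and a peak under 5000 bp overlapped 1.29 ± 0.604. In 518 domains (83.1%, 95% Wilson interval 80.01 to 85.9, counting error only) there were 2 or more protein-coding genes, against 27.4% of the narrower peaks. With only those genes counted that had at least 50% of their length in the domain, the share was 67.9%. A median of 66.2% of a domain's bases lay in protein-coding genes, while the median for narrower peaks was 99.25%. Space between genes was part of most domains. Domains were chosen for width, and a wider stretch takes in more genes and more space between them. These comparisons with narrower peaks are therefore descriptions, and the part of width in them was not tested. Only 1 domain, 6600 bp at chr1:24949001-24955600 on TAIR10, lay wholly inside 1 gene, AT1G66880, and 6 overlapped no protein-coding gene.

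In all, the domains overlapped 1614 of 27444 protein-coding genes (5.88%), or 10.98% of the 14693 protein-coding genes with any peak in WT replicate 1. Of pseudogenes 13 of 3917 (0.332%) were in a domain, and of transcribed pseudogenes 23 of 926 (2.48%), with peaks outside domains not counted. Among 1280 genes with at least 50% of their length in a domain, a median of 91.6% of the gene was covered by peaks of WT replicate 2, which had no part in setting the width. The median was 49.9% in the same library for 12420 genes reached by the narrower peaks. In the same library 37.4% of the genes in domains and 9.73% of the others were covered from end to end. The first set was limited to genes lying mostly inside a domain and the second was not, so the pair is a description.

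The widest domain, 21200 bp at chr1:28856801-28878000, held AT1G76870, AT1G76880 and GT2, which encodes a trihelix transcription factor. Its bases were covered to 76.4% in WT replicate 2, 96.2% and 100% in hda9-1, with 91.5% and 96.2% in pwr-2. All 4 mutant libraries were above WT replicate 2. The next, 19600 bp at chr3:1824801-1844400, held 9 protein-coding genes, among them PRXIIF (a mitochondrial peroxiredoxin), TSC10A (an enzyme of sphingolipid synthesis), NIP7;1 (an aquaporin-type channel) and MKP2 (a MAP kinase phosphatase). It was covered to 88.8% in WT replicate 2, 100% in both hda9-1 libraries, and 88.8% and 98.98% in pwr-2. Here pwr-2 replicate 1 equalled WT replicate 2, with 3 peaks where the WT library had 2.

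The other 8 of the 10 widest domains ranged from 14200 to 17400 bp. They held the chlorophyll synthesis gene CHLI2 with the small GTPase gene RAC2, the cytokinin response regulator ARR9, the sinapoyltransferase gene SNG1 with the carboxypeptidase-like genes SCPL11 and SCPL13, and the beta-galactosidase gene BGAL1. The others held the sugar transporter genes SFP1 and SFP2, the proton pump gene HA3 with VLN5, the transcription factor gene RAV1 with GATL3, and the abscisic acid signalling phosphatase gene PP2CA. In 8 of the 10 widest domains each mutant library was covered at least as far as WT replicate 2, and the CHLI2 and BGAL1 domains were the exceptions. The CHLI2 domain had 52.9% of its bases covered in WT replicate 2 and 47.1% in hda9-1 replicate 2, but 93.1% in hda9-1 replicate 1, and 85.1% and 65.5% in pwr-2. The BGAL1 domain had 75.6% in WT replicate 2, 80.5% and 82.9% in hda9-1, with 74.4% and 64.6% in pwr-2.

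Neighbouring genes of 1 family shared a domain in several places. Among the 518 domains with 2 or more protein-coding genes, 23 (4.44%) held at least 2 genes whose symbols have the same stem, against 1.41% of 2775 narrower peaks with 2 or more genes. Such a count misses genes without a symbol. Domains also overlapped more genes than narrower peaks did, which gives more pairs that can share a stem, and the part of this was not tested. The examples include 4 UDP-glycosyltransferase genes (UGT85A1, UGT85A2, UGT85A3 and UGT85A5) in 13200 bp, the genes RBCS1B, RBCS2B and RBCS3B for the small subunit of Rubisco in 8800 bp, and the glutathione transferase genes GSTU5, GSTU6 and GSTU7 in 7800 bp. Near-identical copies in such arrays can share reads, and the sources used here do not say how reads with several matches were placed.

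Gene families differed in how many members lay in a domain, set beside 5.88% of all protein-coding genes. For light signalling genes the count was 11 of 52, including the blue light receptor gene CRY1, PIF7 and PIL5 (PIF1) for phytochrome-interacting factors, the COP1 partner gene SPA1, and B-box factor genes. Photosynthesis genes were in a domain in 10 of 44 cases, among them RBCS1B, the Rubisco activase gene RCA, the light-harvesting genes LHCA1, LHCB2.1 and LHCB4.1, and PSBO1 of photosystem II. Of 38 aquaporin genes, which encode water channels, 9 were in a domain, including PIP1A, PIP2A, PIP2B and RD28. ERF and DREB factors counted 8 of 43, bZIP factors 8 of 47, and calcium-dependent and CBL-interacting kinases 9 of 55. Of the auxin-related lists, SAUR genes counted 14 of 80, Aux/IAA genes 5 of 32 (IAA2, IAA6, IAA7, IAA16 and ATAUX2-11) and auxin response factors 1 of 22. Not one of 16 circadian clock genes or of 31 genes of the acetylation machinery was in a domain, although 12 and 25 of these had a peak in WT replicate 1.

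Among lists nearer to the background were cytochrome P450 genes with 17 of 229, NAC factors with 4 of 86, WRKY factors with 3 of 67, homeodomain factors with 5 of 97, heat shock genes with 1 of 44, and flowering-time and MADS-box factors with 4 of 121. Other lists counted 12 of 117 MYB factors, 5 of 49 ribosomal protein genes, 2 of 22 histone genes, 6 of 66 XTH and expansin genes, 4 of 47 glutathione transferases, 4 of 42 UMAMIT transporters and 3 of 24 tubulin and actin genes. These counts are descriptions without a test. Many members had no peak in WT replicate 1: among genes with one, 10.98% were in a domain. By list this share was highest for ERF and DREB factors (38.1%), aquaporins (37.5%), SAUR genes (35.9%) and MYB factors (35.3%). It was 10.4% for ribosomal protein genes, 9.26% for homeodomain factors, 8.89% for flowering-time and MADS-box factors, 7.14% for auxin response factors, 4.17% for heat shock genes, and 0% for the clock and acetylation lists.

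Examples from these lists show how their domains looked in each library. The CRY1 domain, 5600 bp at chr4:5720801-5726400, was a single peak in every H3K9ac library and was covered to 89.3% in WT replicate 2 and to 100% in all 4 mutant libraries. The domain of SVP, a floral repressor gene, was 5200 bp wide and covered to 80.8% in WT replicate 2, 100% in both hda9-1 libraries, and 80.8% and 100% in pwr-2. It had no H3K14ac peak in any genotype. In the RBCS domain at chr5:15376401-15385200, coverage was 88.6% in WT replicate 2, 88.6% and 100% in hda9-1, and 100% in both pwr-2 libraries. The domain with the SAUR63 cluster at chr1:10295401-10309200, 13800 bp with 9 protein-coding genes, went the other way in hda9-1, with 75.4% covered in WT replicate 2 and 72.5% in each hda9-1 library, but 87.0% and 92.8% in pwr-2.

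**Figure D1:**
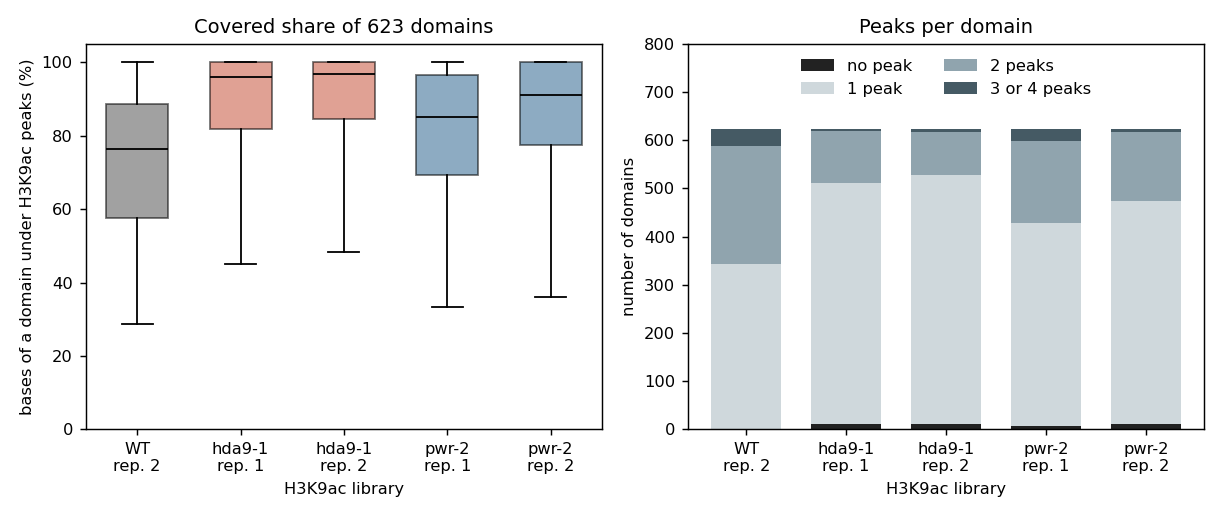
Left, percent of each domain's bases under H3K9ac peaks in the 5 libraries that did not set the domains' width (boxes, quartiles with the median; whiskers, 5th to 95th percentile; 623 domains). Right, number of domains with no, 1, 2, or 3 or 4 peaks in each library. Medians run from 76.4% in WT replicate 2 to 96.8% in hda9-1 replicate 2, and domains with 2 or more peaks from 280 to 94.

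A domain was often broken or shortened in the second WT library and more often whole in the mutants. The median share of a domain's bases under a peak was 76.4% in WT replicate 2, 96.0% and 96.8% in hda9-1 (96.4 ± 0.547, SD, n = 2), and 85.2% and 91.1% in pwr-2 (88.1 ± 4.19, SD, n = 2). All 4 mutant values were above that of WT replicate 2. The number of domains with 2 or more peaks was 280 (44.9%) in WT replicate 2, 112 and 94 in hda9-1 (16.5 ± 2.04%, SD, n = 2), and 195 and 148 in pwr-2 (27.5 ± 5.33%, SD, n = 2). WT replicate 1 has 1 peak per domain by construction, so WT has 1 usable value and no test against it was run on these summaries. Between the mutants, hda9-1 exceeded pwr-2 in covered share by 8.24 percentage points and had fewer split domains, with the 2 libraries of each mutant apart. The exact two-sided permutation p was 0.333 for each, the smallest that 2 against 2 libraries allow. Both hda9-1 libraries also held more reads in peaks than either pwr-2 library. Over the libraries other than WT replicate 1, covered share rose and split domains fell in the order of reads in peaks. Depth and genotype cannot be told apart here.

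Breaks within a domain were short. The median gap between 2 peaks of a domain was 1000 bp in each of the 5 libraries, and the narrowest gap was 800 bp, which is also the narrowest gap between any 2 peaks in the files. With gaps of up to 1000 bp closed, 23.8% of domains were still split in WT replicate 2, 6.58% in hda9-1 and 11.3% in pwr-2. The order of the genotypes was thus the same, with fewer split domains where the libraries held more reads in peaks. Of the 280 domains split in WT replicate 2, 176 were a single peak in both hda9-1 libraries and 111 in both pwr-2 libraries, whereas 14 and 24 domains that were single in WT replicate 2 were split in both libraries of the mutant. Such counts were not made for narrower peaks, so they are not read as a trait of the domains. The UGT85A domain had 4 peaks in WT replicate 2, the highest number there, and 1 peak in each hda9-1 library, 1 and 3 in pwr-2.

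Taking both libraries of a mutant, 431 domains (69.2%) were covered more in hda9-1 than in WT replicate 2 and 49 less. In the narrower peaks of WT replicate 1, 33.9% were covered more and 7.53% less. For pwr-2 the numbers were 334 domains (53.6%) more and 85 less, against 24.2% and 12% of narrower peaks. A narrow peak can be filled more easily: WT replicate 2 covered 47.3% of narrower peaks in full, but 10.4% of domains. Of the 623 domains, 313 were covered more in all 4 mutant libraries than in WT replicate 2, and 32 less. The same count was not made for narrower peaks, so it is not read as a trait of the domains. All 4 mutant libraries also held more reads in peaks than WT replicate 2.

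A peak of at least 5000 bp over the domain was present for 274 domains in WT replicate 2, 485 and 510 in hda9-1, with 411 and 436 in pwr-2. Of the narrower peaks, WT replicate 2 had one this wide over 4.74%. The hda9-1 libraries reached 13.4% and 16.1%, those of pwr-2 8.85% and 9.63%. The libraries stood in the same order in both sets, which is also the order of their reads in peaks. The gain is therefore not read as a trait of the domains, and the part of depth was not tested. In 205 domains (32.9%) all 6 libraries had a peak of at least 5000 bp. These included the domains of the DELLA gene GAI, the brassinosteroid factor gene BES1 and the catalase gene CAT3. Some mutant peaks ran far past the domain. Single peaks of 21000 and 26200 bp in hda9-1 and of 21400 bp in pwr-2 replicate 1 ran over 2 domains, those of the auxin-response repressor genes IAA2 and IAA7, which WT replicate 2 covered to 78.0% and 46.2%. Of the peaks over domains, 24.0% and 26.4% in hda9-1, 17.5% and 18.1% in pwr-2, also took in another peak of WT replicate 1.

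**Figure D2:**
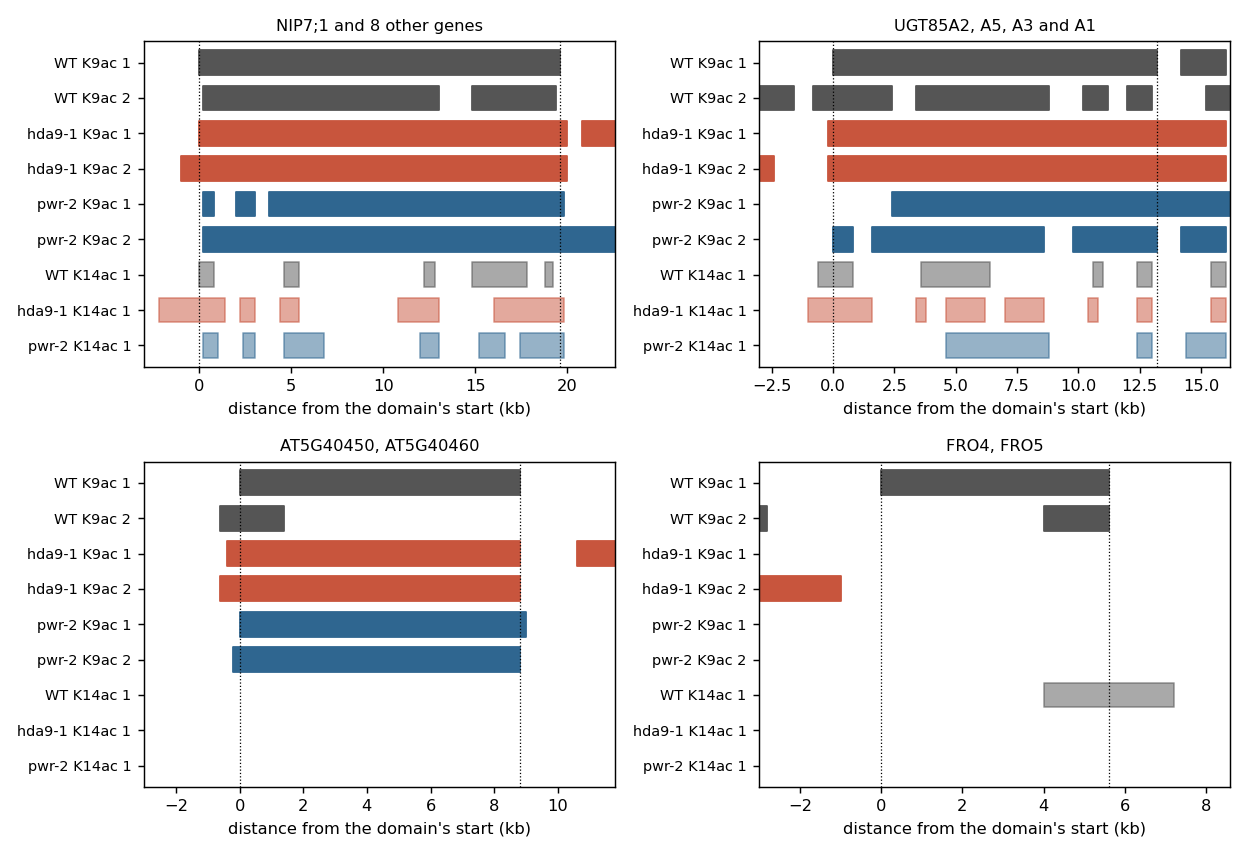
Peaks of the 9 libraries (bars; H3K14ac paler) around 4 domains, against distance in kb from the domain's start; dotted lines mark its ends. The 19600 bp NIP7;1 domain and the UGT85A domain were broken in WT replicate 2 and whole in hda9-1, the AT5G40450 domain was short in WT replicate 2 alone among the H3K9ac libraries, and the FRO4 and FRO5 domain had no peak in any mutant library.

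Few domains lacked a peak in a mutant library: 10 and 11 in hda9-1, 7 and 10 in pwr-2, of 623. Among narrower peaks 1.67%, 1.25%, 6.35% and 1.61% lacked one in the same libraries. In all, 23 domains lacked a peak in at least 1 mutant library, and 600 had a peak in all 6 H3K9ac libraries. Only the domain of FRO4 and FRO5, genes for metal reductases, had none in all 4 mutant libraries. It spanned 5600 bp at chr5:8100801-8106400 with 327 reads in WT replicate 1 and a WT replicate 2 peak over 28.6% of it. WT H3K14ac covered the same 28.6% share, and neither mutant had an H3K14ac peak there.

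The 5 domains with the lowest coverage in hda9-1 had no peak in either hda9-1 library. Besides the FRO4 and FRO5 domain they held AGL79 (a MADS-box factor) with AT3G30280, scpl47 with AT5G22990, AT4G12490 with AT4G12495 and AT4G12500, and no protein-coding gene in the fifth. Coverage of the AGL79 domain was 34.1% in WT replicate 2 and 24.4% and 53.7% in pwr-2, so pwr-2 lay on either side of WT. In pwr-2 the 5 lowest were the FRO4 and FRO5 domain and those of GolS6 (a galactinol synthase), CYP705A3 with BARS1 (baruol synthase), AT4G15650 to AT4G15670, and AT2G05400 to AT2G05430. The last of these, 11600 bp wide, was covered to 19.0% in WT replicate 2, 0% and 69.0% in hda9-1, with 0% and 19.0% in pwr-2. Its libraries of 1 genotype differed more than the genotypes did. The 23 domains had low densities in WT replicate 1, 50.5 to 70.8 reads per kb, against a median of 79.5 for all domains.

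Coverage in WT replicate 2 was higher in domains with a larger share in protein-coding genes. In the 32 domains with under 20% of their bases in such genes, peaks covered 62.6% of all bases in WT replicate 2, 79.0% and 73.5% in hda9-1, with 79.7% and 75.2% in pwr-2. In the 141 domains from 20% to 50% the values were 65.6% in WT replicate 2, 88.0% and 87.0% in hda9-1, with 82.9% and 83.0% in pwr-2. In the 182 domains with 80% or more they were 79.9% in WT replicate 2, 88.2% and 91.0% in hda9-1, with 77.0% and 87.3% in pwr-2, so pwr-2 replicate 1 lay below WT replicate 2 there. Medians over domains also went up in WT replicate 2, from 62.0% in the lowest class through 68.0% and 75.9% to 82.5%. The mutants had no such order in common: in the lowest and the highest class the medians were 100% and 93.1% in hda9-1 replicate 1, 89.1% and 97.1% in its replicate 2, 90.9% and 78.6% in pwr-2 replicate 1, and 90.9% and 92.25% in its replicate 2. Among narrower peaks WT replicate 2 covered 71.9% in the lowest class, 61.8% in the next and 82.3% in the highest. Libraries differed in this respect over all their peaks as well, with 82.6% of peak bases in protein-coding genes in WT replicate 2, 76.4% in WT replicate 1, 72.9% and 75.6% in hda9-1, then 67.3% and 76.2% in pwr-2. The part of that library difference in the result was not tested.

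**Figure D3:**
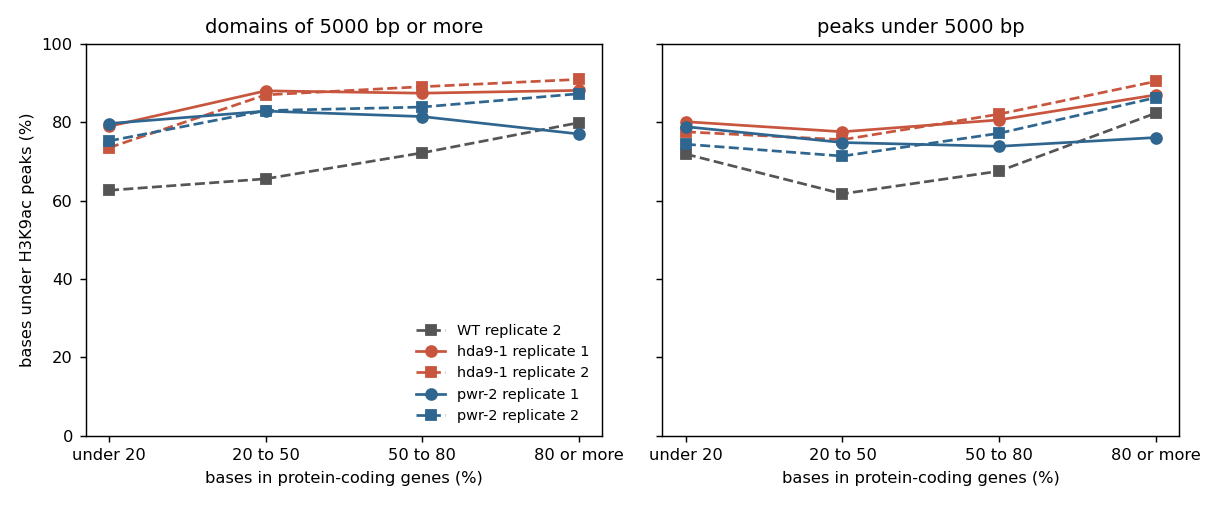
Percent of all bases under H3K9ac peaks by share of the domain or peak in protein-coding genes, for the 623 domains (left) and the 10133 narrower peaks (right), 1 line per library. In domains, WT replicate 2 climbs from 62.6% to 79.9%, while the mutant libraries lie between 73.5% and 91.0%.

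Relative to other peaks, reads over the domains differed little between genotypes on balance. Reads were scaled to a common number of reads in peaks, so a change shared by most peaks would not show. Peaks from the 6 H3K9ac libraries gave 12753 regions when joined where they overlap, of which 599 held a domain and 24 of those held 2. The test used the 5 libraries other than WT replicate 1, so WT was represented by replicate 2 alone, which was assumed to vary like the mutant libraries. Of 8991 regions with a peak in all 5, 583 held a domain. By edgeR's quasi-likelihood test with Benjamini-Hochberg adjustment, 0 of 583 passed an adjusted p of 0.05 in hda9-1 against WT replicate 2, where 0% of all regions were called. The same count of 0 held in pwr-2 against WT replicate 2 and in hda9-1 against pwr-2, again with 0% of all regions called. The median log2 difference of the domain regions was 0.03 in hda9-1, 0.04 in pwr-2 and -0.02 between the mutants, against medians of 0.01, 0.01 and 0.00 over all regions.

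At an unadjusted p under 0.05 there were 104 domain regions (17.8%) in hda9-1, of which 78 were higher, against 16.7% of all regions (829 higher, 672 lower). In pwr-2 there were 134 (23.0%), of which 99 were higher, against 19.1% of all regions (908 higher, 807 lower), and between the mutants 33 (5.66%) against 5.62%. The direction turned per covered bp, with domain medians (log2) of -0.07 in hda9-1 and -0.06 in pwr-2, against 0.01 and 0.01 over all regions. It also turned with all 6 libraries in the fit, which then includes WT replicate 1, the library that chose the domains. There 19 were higher and 35 lower in hda9-1, against 579 and 437 of all regions. For pwr-2 the counts were 22 and 57, against 629 and 595. DESeq2, run as an alternative, called 14 domain regions higher and 0 lower in hda9-1, or 2.40% against 2.11% of all regions. It called 11 higher and 3 lower in pwr-2 against 2.86% of all regions, and 1 higher and 1 lower between the mutants against 0.523%. These shares lay near the background. In simulated data for hda9-1 against WT replicate 2, edgeR called 26% of 50 regions raised 2-fold and 98% of 50 raised 4-fold. Of 50 lowered 2-fold it called 28%, so changes of 2-fold or less were mostly not called. Every simulated region had the same relative spread between libraries, whereas the real regions differed in it. The simulated shares therefore do not hold for regions whose libraries lay further apart, also for changes of 4-fold.

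**Figure D4:**
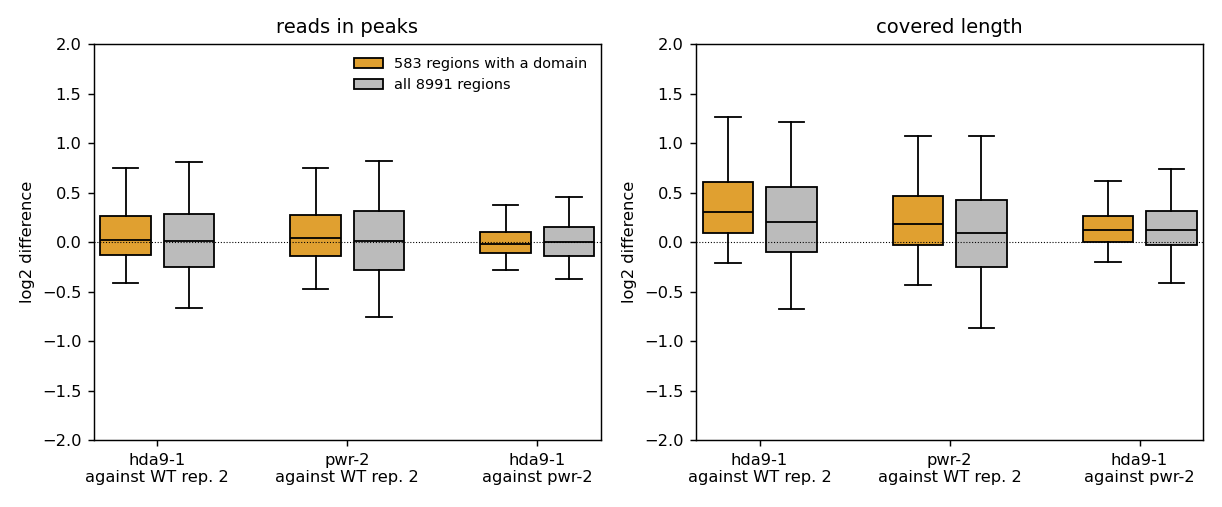
Log2 differences of H3K9ac reads (left) and of covered length (right) in the 583 regions with a domain and in all 8991 regions tested (boxes, quartiles with the median; whiskers, 5th to 95th percentile). Medians of the domain regions are 0.03, 0.04 and -0.02 for reads and 0.31, 0.19 and 0.12 for covered length, from left to right.

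The 4 largest positive differences from WT replicate 2 in each mutant came to 6 regions, and in all 6 WT replicate 1 was well above WT replicate 2. Both choices favour this, since WT replicate 1 chose the domains and these regions were picked as low in WT replicate 2. Values of WT replicate 1 in these regions are therefore given only as description. For the region of AT5G40450 and AT5G40460, scaled reads (CPM, the count scaled to a common number of reads in peaks by TMM) were 354 and 111 in WT, 344 and 320 in hda9-1, with 379 and 306 in pwr-2. WT replicate 1 lay among the mutants, and WT replicate 2 below them all. The log2 difference from WT replicate 2 was 1.58 ± 0.184 (SE, edgeR adjusted p = 0.173) in hda9-1 and 1.63 ± 0.185 (edgeR adjusted p = 0.159) in pwr-2.

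In the region of AT2G03980 the values were 251 and 93.9 in WT, 237 and 228 in hda9-1, with 350 and 277 in pwr-2, where the log2 difference was 1.74 ± 0.202 (SE, edgeR adjusted p = 0.159). Again WT replicate 1 was within the range of the mutant libraries. The region of CRS1 (chloroplast intron splicing) and CSLA11 had 256 and 67.4 in WT, 163 and 210 in hda9-1, with 166 and 182 in pwr-2, so WT replicate 1 was the highest of the 6 libraries. In the other 3 regions a mutant library was low as well. At NAI1, which encodes a bHLH factor needed for endoplasmic reticulum bodies, the values were 181 and 50.4 in WT, 193 and 215 in hda9-1, with 255 and 43.2 in pwr-2 (log2 difference 2.02 ± 1.10 in hda9-1, SE, edgeR adjusted p = 0.411). At AT1G26730 they were 191 and 46.4 in WT, 149 and 147 in hda9-1, with 67.1 and 147 in pwr-2. The region of bZIP6 and the phytosulfokine gene PSK2 had 192 and 33.0 in WT, 34.6 and 154 in hda9-1, with 30.7 and 36.9 in pwr-2, so that its difference rested on hda9-1 replicate 2.

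Among the 4 largest negative differences in each mutant, which came to 6 regions, 5 had all 4 mutant libraries below WT replicate 2; WT replicate 1 chose the domains, and its values are given only as description. In the region of SUVH6, a histone H3K9 methyltransferase gene, the CPM values were 240 and 190 in WT, 81.5 and 77.9 in hda9-1, with 111 and 56.3 in pwr-2. The log2 difference from WT replicate 2 was -1.24 ± 0.403 (SE, edgeR adjusted p = 0.257) in hda9-1 and -1.19 ± 0.407 (edgeR adjusted p = 0.237) in pwr-2, so neither passed the test. The region of the homocysteine methyltransferase gene HMT2 had 263 and 279 in WT, 140 and 150 in hda9-1, with 71.2 and 179 in pwr-2. At AT3G21940 to AT3G21960 the values were 438 and 428 in WT, 353 and 299 in hda9-1, then 235 and 132 in pwr-2, with a log2 difference of -1.23 ± 0.345 (SE, edgeR adjusted p = 0.202) in pwr-2.

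The region of the phloem protein gene PP2-A4 had 279 and 254 in WT, 149 and 117 in hda9-1, with 220 and 50.5 in pwr-2. That of AT4G15650 to AT4G15700, which holds 2 domains, had 514 and 424 in WT, 388 and 123 in hda9-1, with 61.7 and 240 in pwr-2. In both, the libraries of at least 1 mutant lay far apart. The exception was AT5G25415, with 278 and 249 in WT and 159 and 109 in hda9-1, since pwr-2 had 381 and 53.8. These regions were picked for their differences, and none passed the test. Per covered bp the sign turned in several, with log2 differences of 0.18 and 0.50 at SUVH6 and 0.26 and 0.17 at HMT2 in hda9-1 and pwr-2, and of -0.40 and -0.44 at AT5G40450.

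Between hda9-1 and pwr-2 the largest log2 difference whose libraries did not overlap was at UEV1D-4, a ubiquitin-conjugating enzyme variant gene, with a CPM of 214 and 221 in hda9-1, 135 and 95.8 in pwr-2, and 177 and 85.4 in WT (0.92 ± 0.202, SE, edgeR adjusted p = 0.763). The region of ERF6, an ethylene response factor gene, went the other way, with 127 and 165 in hda9-1, 283 and 254 in pwr-2, and 215 and 132 in WT (-0.88 ± 0.171, SE, edgeR adjusted p = 0.756). Per covered bp both turned, to -0.42 at UEV1D-4 and 0.22 at ERF6. Neither passed the test, and the WT libraries were spread over much of the same range.

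**Figure D5:**
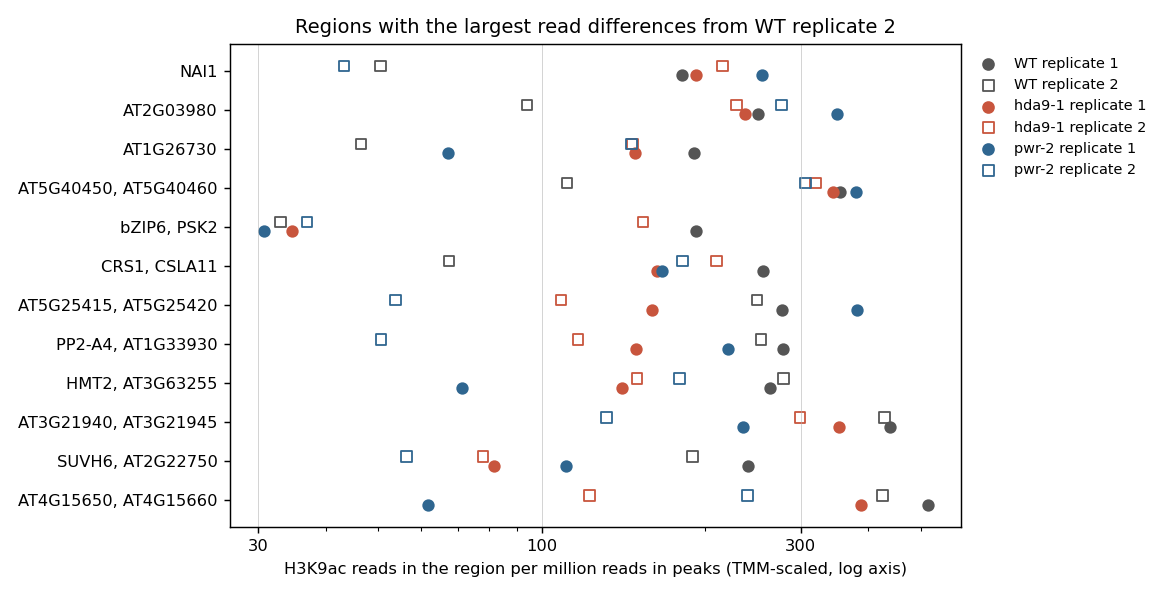
H3K9ac reads in CPM (scaled to reads in peaks by TMM, log axis) in each of the 6 libraries for the regions with the largest differences from WT replicate 2; filled circles are replicate 1 and open squares replicate 2. WT replicate 2 is low in the regions with the largest positive differences, where WT replicate 1 is not. The choice of domains by WT replicate 1 and of regions by WT replicate 2 favours this. At SUVH6 all mutant libraries lie below WT replicate 2.

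The 2 WT libraries can be set beside each other over the 583 domain regions with a peak in all 6 libraries. WT replicate 1 exceeded WT replicate 2 by a median of 0.18 on the log2 scale, as the choice of domains by replicate 1 favours, while the mutant libraries differed from it by medians of 0.00 to 0.06. Both hda9-1 libraries were above WT replicate 2 in 261 domain regions (44.8%), against 41.4% of all 8332 regions, and both pwr-2 libraries in 251 (43.1%), against 38.6%. They were below it in 227 (38.9%) and 194 (33.3%), against 41.8% and 38.3%. Both hda9-1 libraries were above both WT libraries in 68 domain regions, against 23.0% of all regions, and below both in 191, against 23.4%. For pwr-2 the counts were 71 above, against 21.6%, and 157 below, against 21.4%. Nothing is read from the counts that use WT replicate 1, since it chose the domains.

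In the 583 regions the median log2 difference in covered length (with 200 bp added) was 0.31 in hda9-1 and 0.19 in pwr-2 against WT replicate 2, and 0.12 between the mutants. Over all 8991 regions the medians were 0.21, 0.09 and 0.12. With lengths centred on each library's median the domain values were 0.16, 0.19 and -0.03, so the order of the mutants turned. With WT replicate 1 in place of replicate 2 they were 0.08 in hda9-1 and -0.05 in pwr-2, against 0.22 and 0.10 over all regions then tested, and that library chose the domains. Both hda9-1 libraries exceeded WT replicate 2 in 445 of the domain regions, against 50.9% of the 8332 regions peaked in every H3K9ac library, and both pwr-2 libraries in 337, against 36.7%. Both libraries were below WT replicate 2 in 53 domain regions (9.09%) in hda9-1, against 19.1%, and in 87 (14.9%) in pwr-2, against 24.6%. Set beside both WT libraries, hda9-1 was above in 261 (44.8% against 32.6%) and below in 33 (5.66% against 5.4%), and pwr-2 above in 150 (25.7% against 20.5%) and below in 61 (10.5% against 8.82%), from which nothing is read. By limma with Benjamini-Hochberg adjustment, 15 domain regions (2.57%) passed in hda9-1, all longer, against 2.12% of all regions, or 1.41% longer. In pwr-2 5 (0.858%) passed, also all longer, against 1.98%, or 1% longer, and between the mutants 0 of 583 passed, against 0%, with 64 (10.98%) at an unadjusted p under 0.05, against 9.73% of all regions. At the same unadjusted p there were 178 (30.5%) in hda9-1, against 22.5%, and 145 (24.9%) in pwr-2, against 21%. The 5 of pwr-2 were also among the 15 of hda9-1. They were the regions of AT5G40450, AT2G03980, the gibberellin-regulated gene GASA4, the homeodomain factor gene ATHB13, and AT5G46840 with AT5G46850.

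At ATHB13 the covered length was 5000 and 2200 bp in WT and 5000 bp in all 4 mutant libraries. WT replicate 1 equalled the mutants there, but its own peak set this domain. At GASA4 it was 6000 and 3600 bp in WT, 7800 and 8000 bp in hda9-1, and 7600 bp in both pwr-2 libraries, above both WT libraries (log2 difference 1.09 ± 0.0459 in hda9-1, SE, limma adjusted p = 0.0490). The other regions called in hda9-1 included those of the trehalose-phosphate synthase-like gene TPS11, IAA2 with IAA7, the immune regulator gene PAD4, and the receptor kinase gene THE1. In 7 of the 15, WT replicate 1 was covered at least as far as the lowest mutant library, as the choice of domains by replicate 1 favours. The calls of both mutants ended with 1000 bp added, with the replicate block, with all 6 libraries in the fit, with WT replicate 1 in place of replicate 2, or with either hda9-1 library left out. Those of hda9-1 also ended with centred lengths. They numbered 102 in hda9-1 without either pwr-2 library (17.5% and 17.4% of domain regions, against 25.2% and 24.6% of all). In pwr-2 they were 69 (11.8% against 23.8%) without its replicate 1 and 85 (14.5% against 25.1%) without its replicate 2.

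H3K14ac marked parts of the domains, mainly within genes. A peak was present in 489 domains in WT (78.5%, 95% Wilson interval 75.1 to 81.5), and in 508 each in hda9-1 and pwr-2 (81.5%, 78.3 to 84.4). In narrower peaks the shares were 76.6%, 86.7% and 86.4%, below the share of domains in WT and above it in both mutants. A wider stretch has more room to meet a peak, and the WT library held the fewest reads in H3K14ac peaks. The part of either in this order was not tested. The median share of a domain covered was 24.5%, 26.9% and 27.6% in WT, hda9-1 and pwr-2, against 57.1%, 66.7% and 70.6% in narrower peaks. An H3K14ac peak of 5000 bp or more was found in 13, 8 and 19 domains. Of the domain bases under H3K14ac peaks, 88.9% in WT, 90.5% in hda9-1 and 90.02% in pwr-2 lay in protein-coding genes, while 62.3% of the domain bases did so. Over all H3K14ac peaks of these libraries the shares were 90.8%, 91.0% and 90.7%, so this was not particular to the domains. The H3K14ac libraries held fewer reads in peaks than any H3K9ac library, and the part of depth in the narrower coverage was not tested.

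H3K14ac coverage was higher in domains with more gene content. In WT the median was 0% in the domains with under 20% of bases in protein-coding genes and 39.7% in those with 80% or more. The pair of mutants had the same order, from 0% to 45.0% in hda9-1 and from 0% to 48.2% in pwr-2. The 448 domains with an H3K14ac peak in all 3 genotypes had a median of 71.0% in protein-coding genes, and the 77 with none had 40.8%. Of these 77, the widest was the 12400 bp domain of the zinc finger factor genes IDD4 and IDD5, which H3K9ac covered to 61.3% in WT replicate 2, 100% in both hda9-1 libraries, and 90.3% and 100% in pwr-2.

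Single domains differed between genotypes in H3K14ac without a replicate to judge it by. The domain best covered in WT, that of the transcriptional coactivator gene MBF1A, was covered to 93.3% in WT, 93.3% in hda9-1 and 76.7% in pwr-2. At MYBL2, a repressor gene of flavonoid synthesis, H3K14ac covered 85.2% of 5400 bp in WT, but 11.1% in hda9-1 and 22.2% in pwr-2, while H3K9ac covered 100%, 100%, 100%, 85.2% and 100% in WT replicate 2, hda9-1 and pwr-2. The 15200 bp domain of VLN5 and HA3 had no H3K14ac peak in WT and 19.7% and 28.9% of its bases covered in hda9-1 and pwr-2. Over all domains, coverage was higher than WT in 263 and lower in 220 in hda9-1, and higher in 296 and lower in 191 in pwr-2; both mutant libraries held more reads in H3K14ac peaks than WT.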

How the data were processed

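Chromatin was immunoprecipitated from seedlings. Bowtie, SICER and TAIR10 are named in the submitters' processing notes, and the sources used here give no versions. The authors deposited 1 peak list per library, without a header. Each list holds positions and, for each peak, a raw read count as deposited by the authors, a meaning taken from its whole values, which grow with peak width. The handling of duplicate reads is unknown. Peak positions move in steps of 200 bp and are printed from 1. The covered share of a domain is the share of its bases under peaks of a library.

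For genes, the RefSeq table of TAIR10.1 was used. It gives no strand, and its build name differs from that of the peaks, so no gene position is printed. As a check, 78.7% of WT replicate 1 peak bases lay in genes unshifted, and 66.0% to 66.7% after shifts of 2000 to 10000 bp. Members and lists were chosen with earlier results of these data known. The 24 lists are patterns over gene symbols, and patterns that took in unrelated genes were corrected after first counts had been seen. Domains named are the 10 widest, the 5 with most peaks in WT replicate 2, the 5 least covered per mutant, the 4 largest read changes each way per comparison, the 5 with most and the 5 with least H3K14ac in WT, the 5 with most genes, list members, and those at the threshold; the GAI, BES1 and CAT3 domains, the pair of IAA2 and IAA7, and the domains with shared stems were chosen after their values were seen, and not every domain that the rule takes in is printed.

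Reads in merged regions were tested with edgeR 4.0.16 (TMM, quasi-likelihood; biological coefficient of variation 0.169) and covered length (log2 with 200 bp added) with limma, in R 4.3.3, with Benjamini-Hochberg adjustment over 8991 regions. WT replicate 1 was left out, since it chose the domains. Both were tested on simulated data with 200 changed regions and 1 spread common to all regions. Alternatives were DESeq2 1.42.0, other size factors, filters, widths, libraries and a replicate block. Intervals cover counting error only, and reads without molecular identifiers are not independent molecules.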

Additional observations from a re-analysis of the deposited data

How the results depend on the processing

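A minimum width of 4000 bp gave 1067 domains and one of 6000 bp gave 359, against 623. With at least 50% of a domain required under WT replicate 2 peaks, the median covered share was 81.4% in WT replicate 2 and 98.5% in hda9-1, and an H3K14ac peak lay in 82.5%, 85.8% and 85.6% of domains in WT, hda9-1 and pwr-2. With the WT replicates exchanged, the covered share was 81.5% in the other WT library and 93.8% in hda9-1, split domains were 40.8%, 23.5% and 34.2% in WT, hda9-1 and pwr-2, H3K14ac peaks lay in 85.9%, 88.4% and 88.4% of domains, and 87.6% held 2 or more genes. From 6000 bp, 51.8% and 19.1% were split in WT replicate 2 and hda9-1, 82.5% had an H3K14ac peak in WT, and 88.0% held 2 or more genes. With genes counted from 50% of their length, 67.9% did. Closing gaps of up to 600 bp changed nothing, since none is that short. Closing gaps, chosen after seeing the data, left 23.8%, 6.58% and 11.3% split at 1000 bp and 7.38%, 1.52% and 2.73% at 2000 bp in WT replicate 2, hda9-1 and pwr-2. The cause of these shifts was not tested, other than fewer or longer members by construction.

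DESeq2 called 14, 14 and 2 domain regions in hda9-1 and pwr-2 against WT replicate 2 and between the mutants, where edgeR called 0. With all regions peaked in at least 2 libraries, edgeR called 11 and 9 against WT replicate 2 (1.84% and 1.51%, against 5.20% and 5.31% of all regions). For covered length, calls in hda9-1 and pwr-2 went from 15 and 5 to 0 and 0 with 1000 bp added and with all 6 libraries, and in hda9-1 to 0 with centred libraries. They went to 33 and 18 (5.52% and 3.01%, against 6.80% and 5.72% of all regions) in regions with a peak in at least 2 libraries. Between the mutants 1 domain region was called there (0.167%, against 1.64% of all regions). Wherever leaving out 1 library gave covered-length calls, a smaller share of domain regions than of all regions was called. Leaving out 1 library gave 0 to 102 calls in hda9-1, 0 to 85 in pwr-2 and 0 to 61 between the mutants.

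The replicate numbers pair nothing in the labels: same-numbered libraries deviated together with correlations of 0.0801, 0.173 and 0.163 over 8332 regions, with 2 numbers only. The replicate block gave 0 read calls, and 0 covered-length calls in each mutant, with 5 or with all 6 libraries.

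Of 288 values of named regions under alternatives, 259 had the same sign and 29 were reversed. Per covered bp, SUVH6 stood at 0.18 in hda9-1 and 0.50 in pwr-2, HMT2 at 0.26 and 0.17, AT5G25415 at 0.0072, NAI1 at -0.47 and -0.31, AT1G26730 at -0.57, AT5G40450 at -0.40 and -0.44, bZIP6 at -0.20, AT2G03980 at -0.55 and CRS1 at -0.30. Between the mutants LPLAT2 stood at 0.36, ERF6 at 0.22, AT3G45210 at 0.11, bZIP6 at -0.12 and UEV1D-4 at -0.42. With WT replicate 1 in place of replicate 2, AT1G26730 stood at -0.36, AT5G40450 at -0.087 and -0.050, bZIP6 at -1.02, NAI1 at -0.30 and CRS1 at -0.55. With all 6 libraries bZIP6 stood at -0.25, or -0.31 with the block. Leaving out 1 pwr-2 library gave -0.20 to 2.35 for NAI1 in pwr-2, and between the mutants -1.61 to 0.10 for LPLAT2 and -1.51 to 1.31 for AT5G25415. Reads per covered bp, WT replicate 1 in place and all 6 libraries were alternatives; the cause of the reversals was not tested. The WT libraries hold the fewest H3K9ac reads in peaks, which limits what could be detected.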
